A study of Mus musculus with 39 samples.

Results

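Pfn2, Ppm1l, Fzd6, Ankrd6, Arg1, Serpinb2 and P2ry10 are 7 of the 18194 genes measured in 39 lymphomas, and they were singled out because their levels rose with that of Cdkn2a. Every relation to Cdkn2a given here therefore describes how they were chosen and is no test. Each gene was represented by its probe set with the highest mean, and the other probe sets were read beside it. The lymphomas arose in Eµ-myc mice, in which an immunoglobulin heavy chain enhancer drives a Myc transgene in cells of the B lineage. All tumours carry this transgene and form 1 group, with no normal or otherwise altered tissue beside them. The labels give no treatment, age, sex, strain, batch or outcome. Whole frozen tumour tissue was used, 1 array per tumour, and tumours are called here by the numbers of their labels. Whether every tumour came from a mouse of its own is not stated, and the p-values cover the spread among these 39 samples only, which may in part be technical.

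Cdkn2a encodes p16Ink4a and, from another first exon and reading frame, p19Arf. Arf binds Mdm2 and so frees p53 when Myc is too active, and Eµ-myc lymphomas are known for losing Arf or p53; tumours without working p53 are known to keep much Arf transcript. The labels do not give the p53 or Cdkn2a status of any tumour, and the single Cdkn2a probe set is assigned to the gene, not to one of its transcripts. The 7 genes serve unlike tasks. Fzd6 is a Frizzled receptor for Wnt ligands, and Ankrd6 (Diversin) is an adaptor that acts beside Dishevelled in Wnt and planar polarity signalling. P2ry10 is a lymphocyte receptor for lysophosphatidylserine. Pfn2 is a profilin, which binds actin monomers. Ppm1l is a membrane-bound phosphatase of the PP2C family that acts on stress kinases. Arg1 is the arginase of the urea cycle, also made by macrophages that are alternatively activated. Serpinb2 (plasminogen activator inhibitor type 2) inhibits urokinase and is made by activated macrophages.

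The genes lie on 6 chromosomes, Pfn2 and Ppm1l on chromosome 3, Fzd6 on 15, Ankrd6 on 4, Arg1 on 10, Serpinb2 on 1 and P2ry10 on X. Cdkn2a lies on chromosome 4. Sequence before the start site was at hand for 4 of the 7 (Pfn2, Ankrd6, Serpinb2 and P2ry10) and for Cdkn2a, from RefSeq on GRCm38.p6. Windows of 250 bases that end at the start are shown for 3 of them and for the upstream start of Cdkn2a, the one that makes Arf, because their composition is so unlike.

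Cdkn2a, chr4:89294620-89294869, minus strand: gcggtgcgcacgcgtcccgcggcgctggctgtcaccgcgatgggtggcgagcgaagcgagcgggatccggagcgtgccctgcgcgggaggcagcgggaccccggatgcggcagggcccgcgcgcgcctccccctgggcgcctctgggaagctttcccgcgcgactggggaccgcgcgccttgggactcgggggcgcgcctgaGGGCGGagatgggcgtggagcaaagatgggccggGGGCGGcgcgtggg
Pfn2, chr3:57847758-57848007, minus strand: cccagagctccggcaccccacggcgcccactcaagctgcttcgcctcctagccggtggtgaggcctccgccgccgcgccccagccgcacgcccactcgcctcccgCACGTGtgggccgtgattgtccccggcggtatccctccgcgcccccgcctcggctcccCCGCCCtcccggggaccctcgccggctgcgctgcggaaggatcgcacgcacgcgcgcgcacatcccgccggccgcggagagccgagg
Serpinb2, chr1:107511173-107511422, plus strand: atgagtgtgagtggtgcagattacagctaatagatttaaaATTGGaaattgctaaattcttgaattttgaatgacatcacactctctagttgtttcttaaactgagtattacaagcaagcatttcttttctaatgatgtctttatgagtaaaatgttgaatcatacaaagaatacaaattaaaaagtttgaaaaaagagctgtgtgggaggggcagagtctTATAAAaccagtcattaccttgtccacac
P2ry10, chrX:107088242-107088491, plus strand: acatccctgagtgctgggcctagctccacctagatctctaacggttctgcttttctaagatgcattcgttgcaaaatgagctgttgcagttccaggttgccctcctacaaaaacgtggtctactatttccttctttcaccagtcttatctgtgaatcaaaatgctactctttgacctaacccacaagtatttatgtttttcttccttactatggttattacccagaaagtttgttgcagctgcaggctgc

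Capitals mark matches, on either strand, to any of 5 letter strings: the E-box CACGTG, the TATA box string TATAAA, the CAAT box string CCAAT, the GC box GGGCGG and the E2F string TTTCGCGC. No match overlapped another in these windows. G and C made up 78.4% of the Cdkn2a window and 78.0% of the Pfn2 window, with 40 and 38 CG pairs, against medians of 52.4% and 6 over 32851 promoter windows. The Pfn2 window held 1 E-box and 1 GC box, and the Cdkn2a window 2 GC boxes. The first of 3 Ankrd6 windows was of the same kind, with 74.4% G and C, 27 CG pairs and 1 GC box. Its other 2 windows had 56.0% and 60.8%, with 5 and 9 CG pairs, and the second Cdkn2a window had 60.0% and 7. The Serpinb2 window shown had 32.4%, 0 CG pairs, 1 TATAAA and 1 CCAAT, and its second window 38.4%, 3 CG pairs, 1 TATAAA and no CCAAT. P2ry10 had 43.2%, 3 CG pairs and no match in the window shown, and 38.4%, 5 CG pairs and no match in its second. Over all windows, 6.02% held the E-box, 12.4% TATAAA, 33.8% CCAAT, 32.7% the GC box and 0.256% the E2F string. These matches describe letters only, and no binding was measured.

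The arrays were alike in overall brightness, with medians of 5.61 to 5.78 log2 units and correlations between pairs of arrays of 0.889 to 0.991. B-lineage markers were high in most tumours, with median levels of 12.41 for Cd79b and 12.71 for Pou2af1, but in 7 tumours (5, 6, 8, 19, 23, 26 and 32) the mean of 9 pan B markers lay more than 1 log2 unit below average. Tumour 2 had the lowest Myc level, 8.19 against a median of 11.92. These 8 tumours were left out in 1 alternative, and so were tumours 2, 6 and 8 alone, which resembled the others least. Whole tissue cannot tell fewer cells of a type from less RNA per cell. Correlations of the 7 genes with the 3' to 5' difference of control transcripts, with spiked controls and with the array median were at most 0.289 in size, except that P2ry10 correlated with the array median at 0.564.

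Cdkn2a itself had one of the widest spreads among genes, rank 26 by SD. Its lowest level was 4.14 in tumour 6, its median 7.49 and its highest 12.17 in tumour 9. In 9 tumours (9, 14, 12, 17, 10, 3, 24, 15 and 25) it stood between 11.65 and 12.17, then came 10.81 and 10.76 in tumours 5 and 32.

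Among the genes of Wnt signalling, Fzd6 ranged from 5.06 in tumour 16 through a median of 6.28 to 11.60 in tumour 12 (mean 6.79 ± 1.32, SD, n = 39). The level in tumour 12 stood apart, since the next was 9.40 in tumour 9, followed by 9.04 in tumour 15. All 3 of these tumours were high in Cdkn2a, but tumour 1, the fifth for Fzd6 at 8.24, had a Cdkn2a level of only 6.64. Ankrd6 went from 4.08 in tumour 18 through a median of 5.46 to 9.32 (mean 5.95 ± 1.38), and again tumour 12 was highest, followed by tumour 15 at 8.50 and tumour 14 at 8.11. In 15 tumours it lay more than 1 unit above its median and in 2 more than 1 unit below, so it was raised in a minority of tumours.

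P2ry10, the other receptor, went from 4.17 in tumour 8 through 8.63 to 11.51 in tumour 2 (mean 8.05 ± 2.01). It was spread over the whole range rather than raised in a few tumours, and its top tumour had only a middling Cdkn2a level, 7.49. Of its 10 highest tumours, 4 were among the 10 highest for Cdkn2a, while for each of the other 6 genes it was 7.

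Pfn2 ranged from 4.60 in tumour 13 through 7.28 to 12.00 in tumour 24 (mean 7.26 ± 1.81). Tumour 3 at 10.10 and tumour 27 at 9.92 followed, and none of its 10 highest tumours had a Cdkn2a level under the median. Tumours 5 and 32 broke the pattern from the other side: Cdkn2a was 10.81 and 10.76, but Pfn2 was 5.79 and 5.66. Ppm1l ranged from 5.00 in tumour 13 through 6.52 to 8.96 in tumour 14 (mean 6.72 ± 1.00). In tumours 5 and 32 it was high, 7.93 and 7.90, unlike Pfn2, which shares chromosome 3 with it. Tumour 20 was an exception, with the third highest Ppm1l level, 8.36, and Cdkn2a at 7.25.

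Arg1 ranged from 3.57 in tumour 29 through 5.87 to 11.22 in tumour 10 (mean 6.37 ± 2.04), and its 4 highest tumours, 10, 9, 24 and 12, all lay above 10. Tumour 30 was the fifth at 9.20 with Cdkn2a at 8.95, while tumour 5, high in Cdkn2a, had an Arg1 level of 4.04. Serpinb2 ranged from 2.73 in tumour 34 through 3.37 to 7.65 in tumour 12 (mean 3.92 ± 1.24). It was the only one of the 7 whose levels fell into separate clusters by a mixture fit (BIC gain 20.3, with over 10 required). In 30 tumours it stayed low, and in 9 (9, 10, 12, 14, 15, 22, 24, 25 and 30) it lay between 4.93 and 7.65. Of those 9, tumours 22 and 30 had Cdkn2a levels of 7.06 and 8.95, and the other 7 lay at 11.65 or above.

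**Figure D1:**
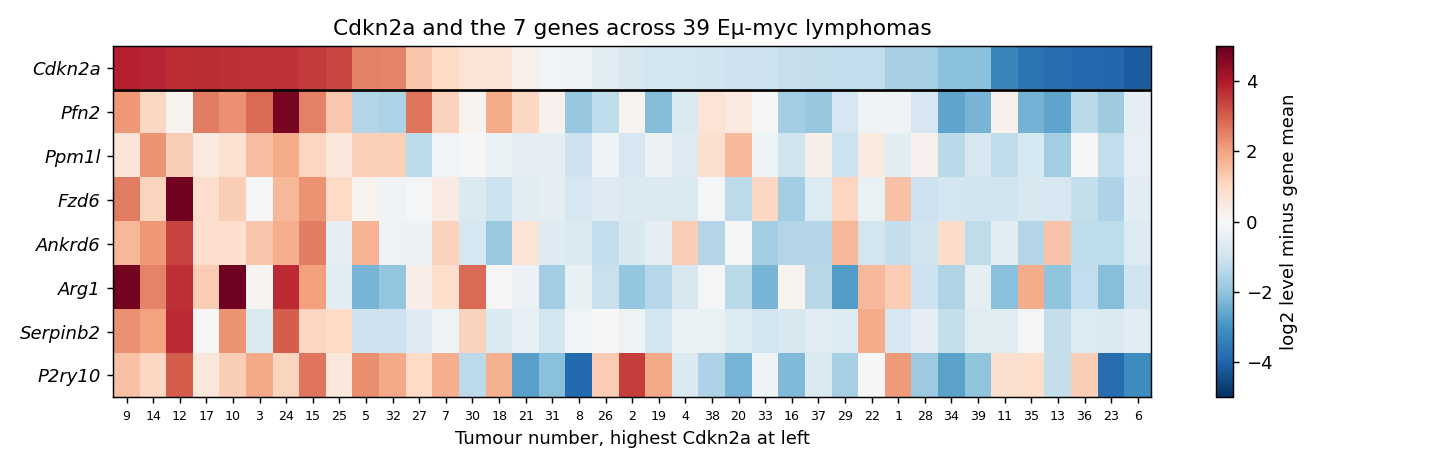
Levels of Cdkn2a (top row) and the 7 genes in each of 39 tumours, as log2 level minus the gene's mean, with tumours ordered by Cdkn2a from highest at the left; each column is 1 tumour. Red is above and blue below the gene's mean: the first 9 columns hold most of the red, tumours 5 and 32 are blue for Pfn2, Arg1 and Serpinb2 and red for Ppm1l and P2ry10, and P2ry10 is red in columns far to the right.

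The high levels gathered in the same tumours. Tumour 15 was among the 10 highest for all 7 genes, tumours 12 and 24 for 6, and tumours 9, 10 and 14 for 5. These 6 tumours had Cdkn2a levels of 11.79 to 12.17. The 7 were chosen for rising with Cdkn2a, so the choice in part sets this gathering, and nothing is read from it.

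The genes rose with Cdkn2a by the rule that chose them, and the slopes are given as a description. In a limma fit over 18193 genes, 436 rose with Cdkn2a, or 2.40%, and 363 fell, or 2.00%, at an adjusted p under 0.05, and the 7 were among the 436 by choice. Per SD of Cdkn2a, which is 2.55 log2 units, the level rose by 1.27 ± 0.21 (SE) for Pfn2, 1.19 ± 0.26 for Arg1, 1.03 ± 0.27 for P2ry10 and 0.89 ± 0.16 for Fzd6. It rose by 0.83 ± 0.18 for Ankrd6, 0.74 ± 0.16 for Serpinb2 and 0.71 ± 0.11 for Ppm1l. Pearson's r with Cdkn2a was highest for Ppm1l at 0.704 (Spearman's rho 0.638) and Pfn2 at 0.701 (0.691). It was 0.671 (0.664) for Fzd6, 0.603 (0.569) for Ankrd6, 0.584 (0.530) for Arg1 and 0.513 (0.506) for P2ry10. Without the 2 tumours farthest from the Cdkn2a median, 9 and 14, r lay between 0.499 for P2ry10 and 0.687 for Pfn2 over these 6 genes. For Serpinb2 no pooled r is given because of its clusters. Within them its r with Cdkn2a was 0.0810 over the 30 low tumours and 0.312 over the 9 high ones, so its slope lies in the step between the clusters.

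**Figure D2:**
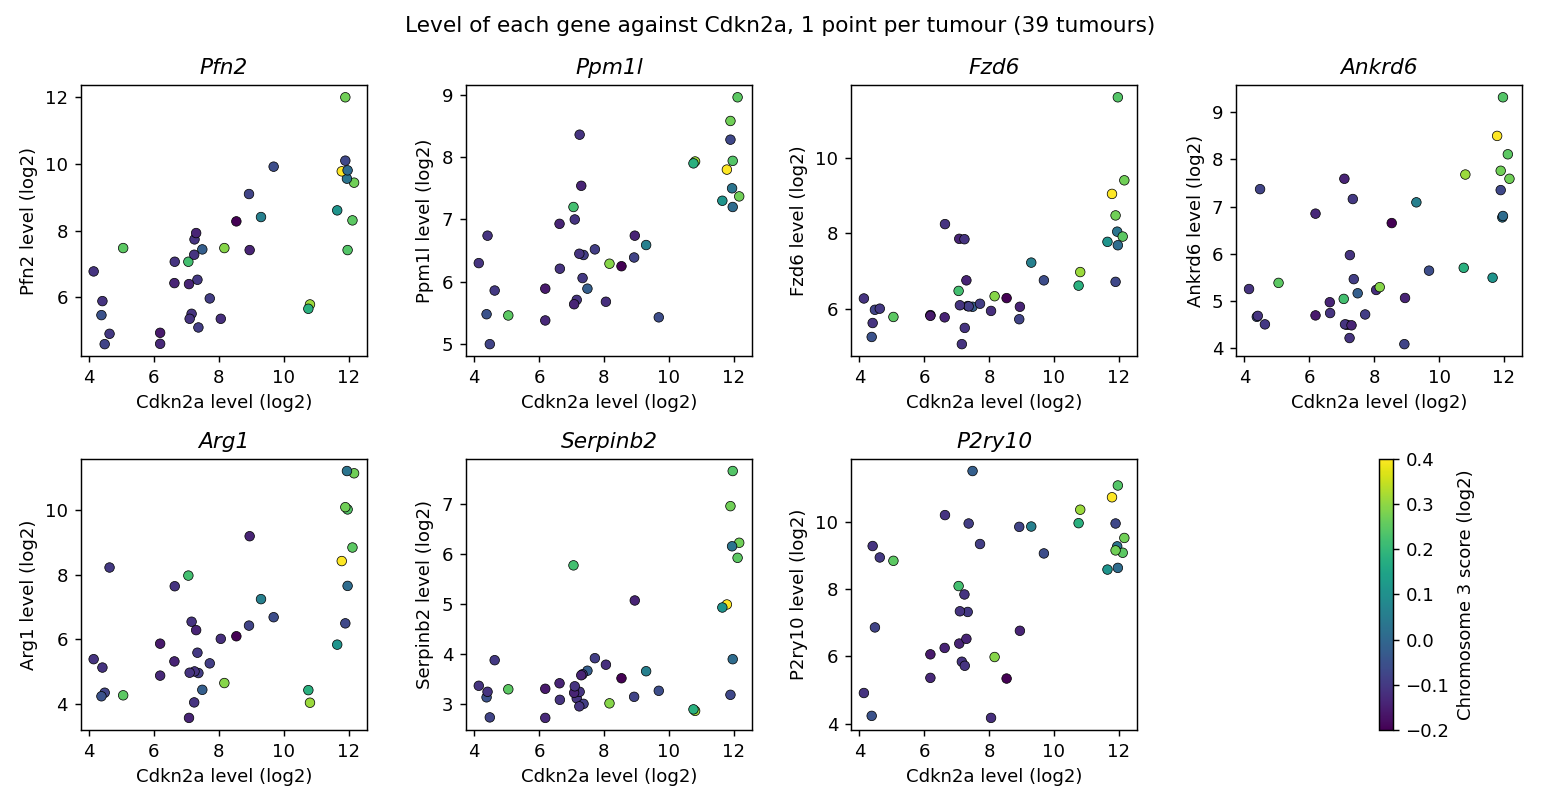
Level of each of the 7 genes (y axis, log2) against the Cdkn2a level (x axis, log2), 1 point per tumour over 39 tumours, coloured by the chromosome 3 score. Pfn2 rises along the whole axis, while Serpinb2 stays under 4 in all but 1 of the tumours with a Cdkn2a level under 8 and is raised at the right; yellow and green points, tumours with a high chromosome 3 score, lie mostly at the right but also at a Cdkn2a level of 5.05.

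Other probe sets of the same gene gave like values for Pfn2 and Ppm1l and not for all of Fzd6 and Ankrd6. The 3 Pfn2 probe sets followed each other (r of 0.993 and 0.975 with the one used) and had r of 0.701, 0.690 and 0.648 with Cdkn2a. For Ppm1l these were 0.704, 0.576 and 0.623. The other 2 Fzd6 probe sets were dim (means 4.47 and 4.17) and nearly flat, with SDs of 0.24 and 0.47. They had r of 0.670 and 0.811 with the one used, and of 0.245 and 0.369 with Cdkn2a. Of the other 2 Ankrd6 probe sets, one went with the one used (r = 0.941) and with Cdkn2a (0.597), and the other less or hardly at all (0.313 and 0.0416). With the mean of all probe sets the slope on Cdkn2a was 0.37 in place of 0.89 for Fzd6 and 0.45 in place of 0.83 for Ankrd6. Arg1, Serpinb2 and P2ry10 had 1 probe set each.

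Whether each gene instead follows its own chromosome was asked with a chromosome score: in each tumour, the median deviation from the gene mean over the other genes of that chromosome with a mean above the median gene, minus the same over all other chromosomes. A score rises when a whole chromosome is raised in a tumour; DNA copy number was not analysed here. The scores ran from -0.20 to 0.40 log2 units on chromosome 3 (440 genes), -0.20 to 0.33 on 15, -0.14 to 0.37 on 4, -0.14 to 0.41 on 10, -0.13 to 0.39 on 1 and -0.11 to 0.45 on X. The rule did not use these scores, but Cdkn2a, on which the genes were chosen, itself rose by 1.44 log2 units per SD of the chromosome 3 score, so the choice in part sets the slopes on chromosome 3. For Ppm1l and Pfn2 the slopes on that score alone are therefore a description. The chromosome term beside Cdkn2a, given after them, was tested. The choice of the genes on Cdkn2a bears on that term too, so it cannot decide whether a gene follows its chromosome.

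At the threshold used for all genes Ppm1l alone of the 7 was called. It rose by 0.50 ± 0.14 per SD of the chromosome 3 score (limma moderated test, adjusted p = 0.0123 over 18022 genes, n = 39), and it was called in each of 39 fits that left out 1 tumour. Over all genes 11.6% rose with their own chromosome and 0.449% fell, so 1 of 7 is near that background, and nothing is read from it. Pfn2, on the same chromosome, had a slope of 0.72 ± 0.26 with adjusted p = 0.0691, and it passed in 4 of the 39 fits, those without tumour 3, 5, 27 or 32. The slopes of the others were 0.56 ± 0.31 for P2ry10 (0.267), 0.43 ± 0.21 for Ankrd6 (0.194), 0.35 ± 0.20 for Fzd6 (0.314), 0.27 ± 0.19 for Serpinb2 (0.434) and 0.05 ± 0.33 for Arg1 (0.950), with adjusted p in brackets. Without the 8 tumours of low pan B score or Myc level, Pfn2 (0.88, limma adjusted p = 0.0311) and P2ry10 (0.82, 0.0285) passed as well. With T cell, macrophage, erythroid and fibroblast scores as covariates, Ppm1l missed the threshold (0.42, limma adjusted p = 0.0664) and Ankrd6 passed (0.55, 0.0423). Over all genes 3157 rose without the 8 tumours and 2591 with the covariates, against 2082 in the main fit. Nothing is read from these calls of members. Without tumour 15 alone the P2ry10 slope was 0.36, and with an uncentred score 0.21. With the mean of all probe sets the Fzd6 slope was 0.13 and that of Ankrd6 0.23. Without tumour 12 alone, the Ankrd6 slope fell to 0.04 and that of Serpinb2 to -0.03. Cdkn2a had a slope of 0.88 ± 0.38 on chromosome 4 (adjusted p = 0.133). A slope that misses the threshold does not show that a gene is independent of its chromosome.

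The chromosome 3 score fell into 2 clusters, 28 tumours and 11 higher ones, and the Ppm1l slope lay between them. Within the clusters its r with the score was 0.136 and 0.0415, and that of Pfn2 was 0.427 and 0.230. The 11 tumours of the higher cluster held Cdkn2a levels from 5.05 in tumour 11 to 12.17 in tumour 9. In tumour 11 Ppm1l was low, 5.46, despite a chromosome 3 score of 0.25. For Fzd6, on chromosome 15, r was 0.462 in 28 tumours and -0.764 in 11, opposite in sign. Cdkn2a, on which Fzd6 was chosen, had r of 0.469 and -0.507 with that score in the same clusters.

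With both terms in one model, none of the 7 passed for its own chromosome (limma, 1 of 7 at an unadjusted p under 0.05). Over all genes 10.2% of 18021 rose and 0.394% fell, so none of 7 is near that background. The choice of the genes on Cdkn2a also bears on these chromosome terms, and nothing is read from their missing the threshold. The chromosome term of Ppm1l fell to 0.16 ± 0.14 (adjusted p = 0.571) and that of Pfn2 to 0.01 ± 0.25 (0.993). Beside them the Cdkn2a terms, descriptions again, were 0.62 ± 0.14 and 1.26 ± 0.26. Serpinb2 had the largest chromosome term, 0.37 ± 0.15, at an unadjusted p of 0.0196 and an adjusted p of 0.118. The others had terms between -0.12 ± 0.27 for Arg1 and 0.24 ± 0.29 for P2ry10, with adjusted p of 0.696 or more. The Cdkn2a terms were 0.85 ± 0.17 for Fzd6, 0.78 ± 0.19 for Ankrd6, 1.21 ± 0.28 for Arg1, 0.79 ± 0.16 for Serpinb2 and 0.95 ± 0.30 for P2ry10, close to those without the chromosome. The difference between the 2 terms of a gene was not tested, since the choice of the genes fixed one of them.

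**Figure D3:**
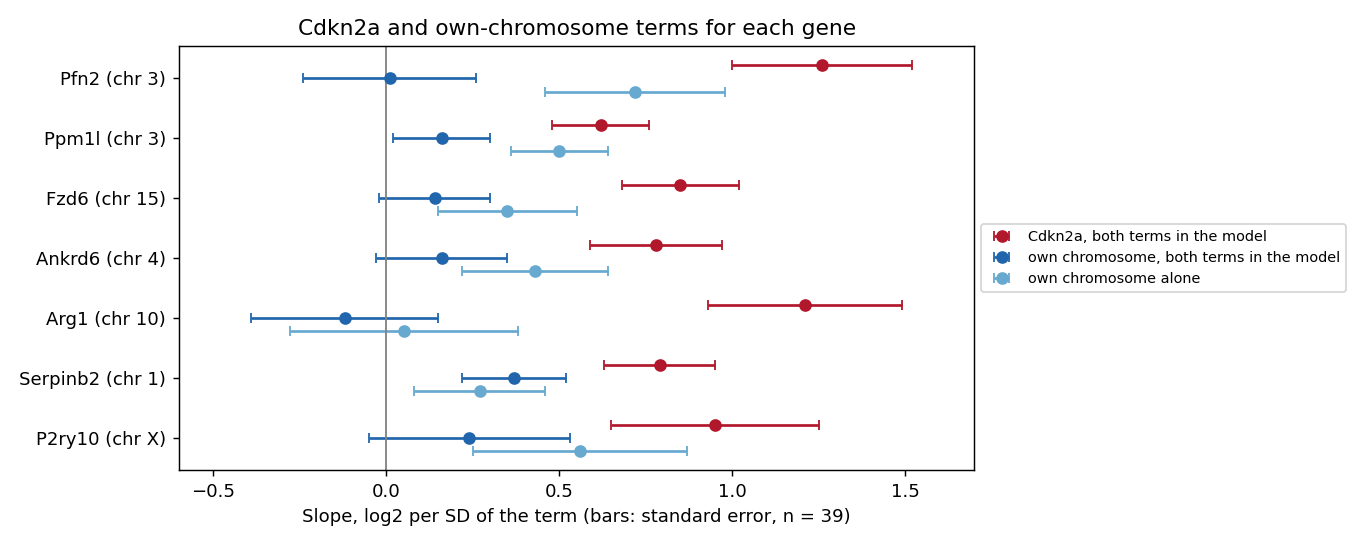
Slopes (x axis, log2 per SD of the term) of the 7 genes (rows, with their chromosome) on Cdkn2a and on their own chromosome in one model, and on their own chromosome alone; points are slopes over 39 tumours and bars standard errors. The Cdkn2a terms, which the choice of genes set, lie between 0.62 and 1.26; the own chromosome terms beside them lie between -0.12 and 0.37, and the Ppm1l term moves from 0.50 alone to 0.16.

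A narrower neighbourhood was scored as well. On the score of the 20 nearest measured genes, 18.4% of genes rose and 1.59% fell. Ankrd6 was the only one of the 7 to pass, with a slope of 0.57 ± 0.20 (limma, adjusted p = 0.0408). That 1 of 7 is near this background, and nothing is read from it. Beside Cdkn2a the term of Ankrd6 on this score was 0.37 (limma, adjusted p = 0.142). The flanking genes of Ankrd6, Rragd, a GTPase of mTORC1 signalling, and Lyrm2, had r of 0.593 and 0.542 with it. Rragd itself rose with Cdkn2a by 0.57 ± 0.12 (limma, adjusted p = 0.00712). The other 6 slopes ran from -0.21 for Arg1 to 0.39 ± 0.19 for Serpinb2 (adjusted p = 0.134), and Ppm1l had 0.19 (0.413). Pfn2 ran against its flanking gene Rnf13 (r = -0.512). P2ry10 did not go with its paralogue and neighbour P2ry10b (r = -0.0661). Between Pfn2 and Ppm1l lay 51 measured genes, between Fzd6 and Myc 76, and between Ankrd6 and Cdkn2a 288.

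Cdkn2a itself went with whole chromosomes other than its own. Of 20 chromosome scores, 6 passed for Pearson's r (2 positive, 4 negative) and 4 for Spearman's rho, in permutation tests of 100000 draws adjusted over the 20. The closest was chromosome 13, on which Cdkn2a fell by 1.72 log2 units per SD of the score (p = 1e-05, the smallest these draws can give, adjusted p = 2.0e-04, 2-sided). It rose by 1.44 per SD of the chromosome 3 score (adjusted p = 0.0014) and by 1.24 per SD of chromosome 5 (adjusted p = 0.0036). It fell with chromosome 7 (r = -0.494, rho = -0.500, permutation adjusted p = 0.0030 and 0.0073), and less closely with 9 (r = -0.413, rho = -0.388, 0.027 and 0.063) and 2 (r = -0.362, rho = -0.369, 0.047 and 0.074). For its own chromosome 4, with Cdkn2a left out, r was 0.346 and rho 0.218 (permutation adjusted p = 0.072 and 0.45). Among the genes of chromosome 3, 85 of 913 rose with Cdkn2a, or 9.31%, and among those of chromosome 13, 78 of 702 fell, or 11.1%.

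The 7 genes shared this chromosome 3 pattern whatever their own chromosome. Of the 20 scores, that of chromosome 3 gave the largest positive slope for all 7, from 0.50 for Ppm1l and 0.66 for Serpinb2 to 0.99 for P2ry10. The own chromosome had rank 1 for Pfn2 and Ppm1l, whose own it is, rank 4 for Ankrd6, 5 for P2ry10, 7 for Fzd6 and Serpinb2 and 11 for Arg1. The lowest slope was on chromosome 13 for Pfn2 (-1.26), Arg1 (-0.97) and Ppm1l (-0.55), on 7 for Fzd6 (-0.90) and Ankrd6 (-0.74), on 9 for Serpinb2 (-0.76) and on 2 for P2ry10 (-1.02). Since the 7 were chosen on Cdkn2a and Cdkn2a goes with these scores, the slopes are given side by side with no test.

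**Figure D4:**
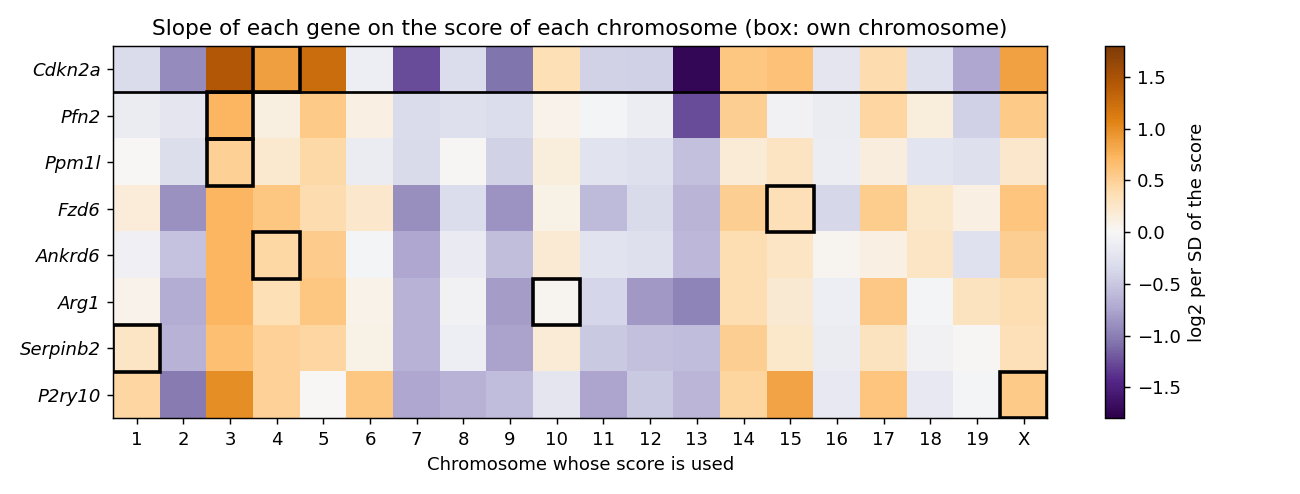
Slope of Cdkn2a (top row) and each of the 7 genes on the score of each of 20 chromosomes (columns), in log2 units per SD of the score over 39 tumours; a box marks the gene's own chromosome. The chromosome 3 column is orange in every row, from 0.50 for Ppm1l to 1.44 for Cdkn2a, and the chromosome 13 column is purple, down to -1.72 for Cdkn2a and -1.26 for Pfn2.

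In 6 tumours (3, 10, 15, 17, 24 and 25) the chromosome 13 score formed a low cluster, from -0.60 to -0.22, and Cdkn2a lay between 11.65 and 11.97 in all 6. Pfn2 was between 8.61 and 12.00 there, above its median in each of the 6, as were Ppm1l, Fzd6 and Ankrd6. Arg1 and Serpinb2 were above theirs in 5 and P2ry10 in 4. Since the 7 were chosen on Cdkn2a, which was high in all 6 tumours, the choice in part sets these counts. The share of all genes above their median there was not counted, and nothing is read from the counts. Given the chromosome 3 score, r with Cdkn2a was 0.627 for Pfn2, 0.587 for Ppm1l, 0.523 for Fzd6, 0.499 for Arg1, 0.438 for Ankrd6 and 0.326 for P2ry10. Given that of chromosome 13, it was 0.436 for Pfn2 and between 0.406 and 0.544 for the other 5. With the chromosome 3 score as a covariate, an alternative chosen after seeing the data, 4 genes rose with Cdkn2a in place of 436, and Pfn2 was the only one of the 7 still past the threshold. The slopes themselves fell less: 1.26 for Pfn2, 1.16 for Arg1, 0.70 for Fzd6, 0.69 for P2ry10, 0.62 for Ppm1l and for Ankrd6 and 0.54 for Serpinb2. With chromosome 13 it was 6 genes and none of the 7, with slopes of 1.12 for P2ry10, 0.99 for Arg1, 0.84 for Fzd6, 0.77 for Ankrd6, 0.76 for Pfn2 and 0.62 for Ppm1l and for Serpinb2. The separate parts of Cdkn2a and of these chromosomes in the 7 levels were not tested.

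Few relatives of the 7 genes passed on Cdkn2a. Of 26 other Frizzled, Dishevelled and planar polarity genes measured, 0 rose and 0 fell in the limma fit on Cdkn2a (6 at an unadjusted p under 0.05), with a median slope of -0.02, the same as the median of all genes; Fzd1 had -0.11 ± 0.11 and Fzd7 -0.25 ± 0.17. Of 19 other P2Y and lysophospholipid receptors, 0 passed (4 unadjusted, median 0.02), P2ry10b had 0.05 ± 0.14 and Gpr174, another lysophosphatidylserine receptor, 0.04 ± 0.31. Among 19 other profilins and actin regulators 1 fell, Pfn1, by 0.12 ± 0.03 (limma, adjusted p = 0.0185), so Pfn1 and Pfn2 had slopes of opposite sign. Among 17 other PPM phosphatases Ppm1f alone rose, by 0.24 ± 0.07 (adjusted p = 0.0355). Of 14 other arginine and urea cycle genes 1 rose, the arginine carrier Slc7a1, by 0.19 ± 0.06 (adjusted p = 0.0400), and Arg2 had -0.06 ± 0.11. Of 15 other clade B serpins and plasminogen activator genes 0 passed (4 unadjusted, median -0.09). With lists this short, 1 gene is close to the 2.40% and 2.00% of all genes that rose and fell.

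The measured genes of the Cdkn2a pathway did not pass either. Of 12 genes of the Arf and p53 axis and of 17 p53 targets, 0 passed in either direction (limma, 3 of each list at an unadjusted p under 0.05). The median slopes were 0.01 and 0.02. Mdm2 had -0.04 ± 0.04 and Cdkn1a, the p21 inhibitor, -0.25 ± 0.13 (limma, adjusted p = 0.262). Both of these genes are in both lists, and Trp53 itself was not among the genes measured. With lists this short, 0 is close to the 2.40% and 2.00% of all genes that rose and fell.

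Each gene was then fitted on 14 cell type and pathway scores and on the levels of Myc and Xist, none of which the rule used. Of the 112 pairs, 4 passed, all rising, and 14 had an unadjusted p under 0.05. P2ry10 rose with the mature B cell score, whose markers include Ms4a1, Cr2, Cd40 and class II genes, by 1.40 ± 0.23 per SD (limma, adjusted p = 4.9e-05), where 5.41% of all genes rose. The array median also went with this score (r = 0.772). Given the array median, r between P2ry10 and the score was 0.497, and given Cdkn2a it was 0.700. Given the score, r between P2ry10 and Cdkn2a was 0.521. P2ry10 rose with the T cell score by 1.01 ± 0.28 (adjusted p = 0.0119, background 6.86%). That relation was lost without tumours 2, 6 and 8 (0.65, adjusted p = 0.126), while the one with mature B cells kept its call (1.10 ± 0.24, 0.00385).

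Pfn2 rose with the pan B score by 0.83 ± 0.25 (limma, adjusted p = 0.0119) and Arg1 by 0.83 ± 0.30 (0.0322), where 11.8% of all genes rose. Both calls were lost without the 8 tumours of low pan B score or Myc level (0.91, adjusted p = 0.189, and 0.97, 0.243). Pfn2 was 5.79, 6.78, 5.36, 5.10, 5.47, 5.97 and 5.66 in the 7 tumours of low pan B score, all below its median, and so were the Arg1 levels of all 7 but tumour 8. 

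Over all tumours none of the 7 passed on the other scores (limma). Some of these were followed by many genes: the share of all genes that passed in either direction was 40.2% for G2/M, 39.2% for Myc targets, 36.0% for Myc, 32.1% for p53 targets, 25.1% for fibroblasts, 23.0% for interferon and 14.8% for precursor B cells. It was 6.14% for plasmacytoid dendritic cells, 2.68% for endothelium, 1.30% for erythroid cells, 0.0770% for neutrophils and 0.0220% for Xist. At an unadjusted p under 0.05, none of the 7 rose or fell with the G2/M, Myc target, p53 target or precursor B score or the Myc level. Ppm1l (-0.36) and Ankrd6 (-0.49) fell with the fibroblast score, and Arg1 (-0.67) and Ankrd6 (-0.53) with interferon. With the plasmacytoid dendritic score Arg1 fell (-0.63) and P2ry10 rose (0.83). With Xist, whose levels formed clusters of 21 and 18 tumours, Fzd6 (0.49) and P2ry10 rose. P2ry10, on X, had 1.03 ± 0.27 (limma, adjusted p = 0.341), the same slope per SD as on Cdkn2a.

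**Figure D5:**
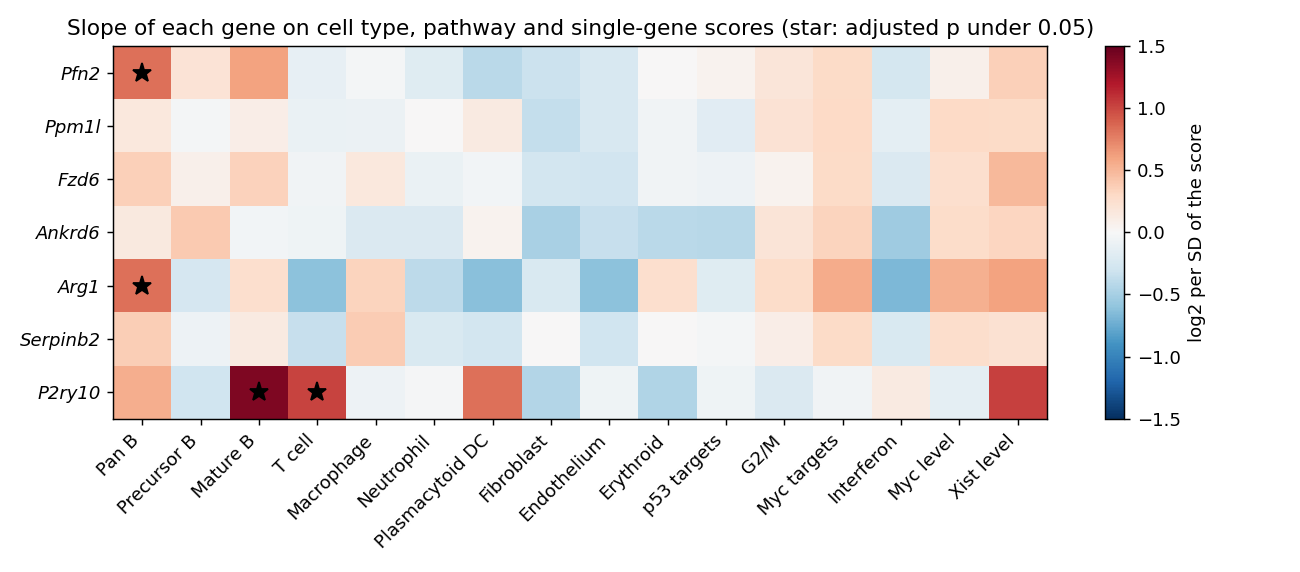
Slope of each of the 7 genes (rows) on 14 list scores and the levels of Myc and Xist (columns), in log2 units per SD of the score over 39 tumours; a star marks an adjusted p under 0.05 in the limma fit over all genes. The 4 stars are Pfn2 and Arg1 with pan B (0.83 each) and P2ry10 with mature B (1.40) and T cells (1.01).

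Arg1 and Serpinb2 are genes of activated macrophages, and their relation to the macrophage list was uneven. Over 39 tumours their slopes on the score of 16 macrophage genes were 0.33 ± 0.32 (limma, adjusted p = 0.478) and 0.38 ± 0.19 (0.115), where 16.9% of genes rose. Without the 8 tumours they were 1.25 ± 0.30 (0.0203) and 0.89 ± 0.18 (0.00603), and 1.66% of genes rose. The macrophage gene that went most closely with both was Vsig4, a complement receptor of resident macrophages, which ranged from 3.14 through a median of 4.12 to 7.63. With Vsig4 out of the score, a setting added after seeing the data, the slopes over the 31 tumours were 1.06 ± 0.32 (0.0579) and 0.76 ± 0.20 (0.0275), where 2.23% rose. Vsig4 was also the only macrophage gene of 16 that rose with Cdkn2a, by 0.74 ± 0.18 (limma, adjusted p = 0.0165). It was highest in tumours 24, 14, 12, 22, 10 and 9, all 6 of which belong to the high Serpinb2 cluster, while their macrophage scores had ranks 6 to 14. Over all 39 tumours, 1 of the 16 genes had r above 0.5 with Arg1 (Vsig4) and 2 with Serpinb2 (Vsig4 and Cd163). Over the 31 tumours it was 3 with Arg1 (Vsig4, Cd14 and Msr1) and 4 with Serpinb2 (these and Cd163). The share of all genes with r above 0.5 was not counted. Cd163 and Mrc1 were highest in tumour 25 and Vsig4 in tumour 24, both of the high Serpinb2 cluster. All other genes of the list were highest in tumours 2, 6, 8 or 23, which are not in it. Among these were Adgre1, Cd68 and Itgam in tumour 8, Msr1 in tumour 2 and Cd14 in tumour 23. The part of macrophages in the Arg1 and Serpinb2 levels was not tested.

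Over the 15 pairs without Serpinb2 the median r was 0.457, and given Cdkn2a it was 0.0584, with 13 positive. The 7 were chosen for going with Cdkn2a, so the choice sets this fall. Arg1 and Serpinb2 went together within both Serpinb2 clusters (r = 0.614 over 9 tumours and 0.507 over 30). Fzd6 went with Serpinb2 in the 9 (0.677) and not in the 30 (0.0154). Tumour 12, one of the 9, was the highest for both Fzd6 (11.60) and Serpinb2 (7.65), and r without it was not computed. Fzd6 and Ankrd6, the Wnt pair, had r = 0.660, and 0.431 given Cdkn2a, and tumour 12 was the highest for both. Pfn2 and Ppm1l had 0.523, and 0.0584 given Cdkn2a.

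The genes most like each of the 7 were named by Pearson's r over the 39 tumours, as a description. For Ppm1l all 3 (Man1a2, 0.701, Tiparp, 0.696, and Pgrmc2, 0.674) lay on chromosome 3. For Ankrd6 they were Trmt13 (0.715) and Rps27 (0.658), both on chromosome 3, and Hmg20b (0.703). Pfn2 was most like Dtx1 (0.737), a regulator of Notch signalling, Prkca (0.722) and Endou (0.715), and Fzd6 most like Eqtn (0.790), Atcayos (0.753) and Rps27 (0.730). P2ry10 was most like H2-DMb2 (0.819), which helps load peptides on class II molecules, Slc9a7 (0.763) and Rab30 (r = 0.544 within its larger cluster of 25 tumours). Arg1 and Serpinb2 shared Vsig4 and Upk3b; the third was Ptgis for Arg1 and Rps27 for Serpinb2. For Arg1, r with Vsig4 was 0.386 and 0.681 within the Vsig4 clusters of 28 and 11 tumours, and with Upk3b it was 0.775 over all. For Serpinb2, r with Vsig4 was 0.348 in its 30 low tumours and 0.771 in the 9 high ones. Cdkn2a was most like Fip1l1 (0.705) and Sbds (0.685) on chromosome 5 and Ccnl1 (0.692) on chromosome 3.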

How the data were processed

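Total RNA from 39 lymphomas was labelled with biotin and hybridised to 1 Affymetrix array each. For each probe set the authors deposited a log2 level; RMA and the affy package appear in the submitters' processing notes, with no version. Further settings were not given in the sources used here, and the values themselves show the log2 scale. Quantile normalization in RMA hides a change in total RNA per cell and compresses dim genes.

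Of 45101 probe sets, 34958 named 1 gene in the platform annotation, 932 several, and 9211 were not listed; 34754 matched a table of GRCm38.p6 by Entrez identifier. The probe set with the highest mean stood for each of 18194 genes. All fits ran over all genes with limma 3.58.1 in R 4.3.3, 2-sided, with moderated variances and a trend, and Benjamini-Hochberg adjustment at 0.05. Covariates were divided by their SD. A list score is the mean of log2 level minus gene mean over its genes. Tumours were taken as separate clusters where a mixture of 2 normal distributions (mclust 6.1.1) gained over 10 BIC units with at least 3 tumours in the smaller; r is then given only within clusters of at least 6. Fits were tested on simulated data. Precision is limited by how many arrays there are.

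The 7 genes and all gene lists were chosen with earlier results of these data known. Named genes are the 7, Cdkn2a, the 3 genes with the highest r with each of them, and the called relatives with the largest slopes in each direction; flanking genes, Fzd1, Fzd7, Gpr174, Arg2, Mdm2, Cdkn1a, Adgre1, Cd68, Itgam, Cd14, Msr1, Cd163 and Mrc1 were added after their values were seen. Alternatives changed the probe sets, the filter, the tumours, the variance trend, the chromosome score and covariates for composition.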

Additional observations from a re-analysis of the deposited data

How the results depend on the processing

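Counts of members are of the 7 genes. On the own chromosome, 1 member passed in the main analysis, 2 with only genes above the median level (where Arg1, Ankrd6 and Serpinb2 were not tested), 2 with an uncentred score and 3 without the 8 tumours of low pan B score or Myc (Ppm1l, Pfn2 at 0.88 and P2ry10 at 0.82, limma adjusted p = 0.0311 and 0.0285). Leaving out 1 tumour at a time gave 1 to 2. With T cell, macrophage, erythroid and fibroblast scores as covariates Ppm1l missed the threshold (0.42, adjusted p = 0.0664) and Ankrd6 passed (0.55, 0.0423). Over all genes, 2082 rose with their own chromosome, 3157 without the 8 tumours, 4210 uncentred and 3309 on the 20 nearest genes. Among genes above the median level only, where fewer were tested, 2365 rose, and with the covariates 2591. The counts over all genes thus moved with the setting too, and nothing is read from the member counts. With Cdkn2a in the model 1834 rose, 2765 without tumours 2, 6 and 8, 2932 without the 8, 4092 uncentred and 3025 on the 20 nearest genes. In that model 1 member passed uncentred (Serpinb2, 0.40, adjusted p = 0.0450). On Cdkn2a, 436 rose and 363 fell; with chromosome 3 as a covariate 4 and 8, and with chromosome 13, 6 and 10. Without the 8 tumours P2ry10 on Cdkn2a had 0.85 (adjusted p = 0.0558). Some slopes changed sign. The Pfn2 chromosome term beside Cdkn2a was -0.00 with mean probe sets, -0.04 without tumours 2, 6 and 8 and -0.05 uncentred, and that of P2ry10 was -0.26 uncentred. On the own chromosome Arg1 had -0.15 without the 8 tumours. On the 20 nearest genes Pfn2 had -0.07, Fzd6 -0.15 and Arg1 -0.21, and Arg1 had 0.36 beside Cdkn2a. Leave-one-out slopes of Arg1 ran from -0.15 (without tumour 14; -0.08 without 12) to 0.23, and of Serpinb2 from -0.03 (without 12) to 0.45. The relation of Cdkn2a to chromosome 7 was lost without the 8 tumours (r = -0.413, permutation adjusted p = 0.0516) and uncentred (-0.229, 0.324). The causes were not tested. No paired analysis was possible because all tumours form 1 group. With 39 arrays, and Serpinb2, Ankrd6 and Arg1 under the median level, a missed threshold does not show that a relation is absent.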

Other observations

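Without the 8 tumours of low pan B score or Myc level, P2ry10 fell with the score of 17 G2/M genes, such as Mki67, Top2a and Ccnb1, by 1.00 ± 0.25 per SD (limma, adjusted p = 0.00337, n = 31), where 8.15% of all genes fell. Over all 39 tumours the slope was -0.22 ± 0.32 (limma, adjusted p = 0.646). In tumours 5 and 32, of low pan B score and high Cdkn2a level, Ppm1l was 7.93 and 7.90 and P2ry10 10.36 and 9.96, while Serpinb2 was 2.87 and 2.90. The opposite case was tumour 22, with Cdkn2a at 7.06 and Serpinb2 at 5.77, Arg1 at 7.98 and Vsig4 at 7.08.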
